A study of Mus musculus with 18 samples.

Results

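The 33 genes described here are enzymes and transporters of glycolysis, together with genes that cells induce when oxygen is short. They were taken by symbol from a written list of such genes and matched to 33 of the 54752 genes in a table of read counts per gene. By role they fall into 3 oxygen-sensing genes, 4 genes of glucose uptake and the preparatory steps and 4 genes of the phosphofructokinase step. The others are 9 genes of a payoff group, 3 genes that set the fate of pyruvate and 10 other hypoxia-induced genes. The payoff group runs from aldolase to pyruvate kinase, so it includes Aldoa, Aldoc and Tpi1, whose steps come before ATP is regained. No expression value was used to choose them, although the list was drawn up with earlier results of these data known.

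RNA was sequenced from mouse ovarian cancer cells and tumors after targeting of Cd276, which encodes the immune checkpoint family protein B7-H3. ID8 cells are given as C57BL6 in strain, HM-1 cells as B6C3F1, and the HM-1 tumors were collected on day 10 after intradermal injection of HM-1 cells into B6C3F1 mice. The 6 groups of 3 libraries were ID8 cultures labelled Cd276KO and their control cultures, HM-1 cultures labelled Cd276KO and their control cultures, and tumors grown from HM-1 Cd276KO cells and from HM-1 control cells. The mice are not described as knockout, so host cells in a tumor are not taken to carry the Cd276 change. Whether each knockout line was 1 clone or a pool, and what the control cells carry, is not given in the sources used here. Libraries within a group are labelled as biological replicates, with no word on separate cultures, so the p-values measure the spread between these libraries, which may in part be technical.

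Glycolysis splits glucose to pyruvate, first spending ATP in the preparatory steps and then regaining it in the payoff steps. Pyruvate then either enters mitochondria through pyruvate dehydrogenase or is reduced to lactate and exported. When oxygen falls, prolyl hydroxylases of the Egln family no longer mark the alpha subunits of the hypoxia-inducible factor (HIF) for destruction, and the stabilised factor binds short DNA cores in promoters and enhancers of glycolytic genes and of genes for blood vessel growth, pH control, mitophagy and collagen modification. Many solid tumors show this programme, and Hif1a itself is regulated mainly through protein stability, which RNA levels do not report.

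The promoters of the genes with the widest knockout differences in ID8 cells are shown because HIF binds the cores ACGTG and GCGTG. They are the 4 members that fell most, Bnip3, Pdk1, P4ha2 and Pgk1, and the member that rose most, Egln3. Each run is the 250 bases before the RefSeq transcription start on GRCm38.p6, written 5′ to 3′ on the strand of the gene, with every ACGTG or GCGTG on either strand in capitals (the other strand reads CACGT or CACGC).
Bnip3 (chr7:138909507-138909756, minus strand): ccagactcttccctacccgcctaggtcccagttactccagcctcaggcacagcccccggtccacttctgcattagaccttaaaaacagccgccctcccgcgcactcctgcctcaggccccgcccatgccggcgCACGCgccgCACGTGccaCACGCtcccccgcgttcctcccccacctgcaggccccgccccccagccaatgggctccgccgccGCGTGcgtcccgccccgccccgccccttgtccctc
Pdk1 (chr2:71872974-71873223, plus strand): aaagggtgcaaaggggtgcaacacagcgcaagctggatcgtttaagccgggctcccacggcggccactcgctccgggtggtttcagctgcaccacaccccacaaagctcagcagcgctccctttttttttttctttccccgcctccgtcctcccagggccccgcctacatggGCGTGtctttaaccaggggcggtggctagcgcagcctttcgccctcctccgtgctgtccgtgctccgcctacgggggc
P4ha2 (chr11:54100674-54100923, plus strand): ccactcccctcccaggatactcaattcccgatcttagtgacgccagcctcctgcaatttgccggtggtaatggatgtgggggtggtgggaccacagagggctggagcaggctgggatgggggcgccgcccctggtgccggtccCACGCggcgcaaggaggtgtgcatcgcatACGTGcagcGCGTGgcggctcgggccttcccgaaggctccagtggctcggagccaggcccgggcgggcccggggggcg
Pgk1 (chrX:106186850-106187099, plus strand): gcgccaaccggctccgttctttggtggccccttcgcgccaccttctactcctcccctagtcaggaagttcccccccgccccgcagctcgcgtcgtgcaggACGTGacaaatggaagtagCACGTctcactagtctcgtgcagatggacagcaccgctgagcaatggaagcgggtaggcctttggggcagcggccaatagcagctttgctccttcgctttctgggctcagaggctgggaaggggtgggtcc
Egln3 (chr12:54203875-54204124, minus strand): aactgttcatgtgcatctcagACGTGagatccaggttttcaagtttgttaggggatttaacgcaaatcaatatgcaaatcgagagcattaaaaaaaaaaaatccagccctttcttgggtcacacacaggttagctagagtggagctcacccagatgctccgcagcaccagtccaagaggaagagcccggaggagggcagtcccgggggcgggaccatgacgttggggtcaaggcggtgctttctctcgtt
The Bnip3 window held 5 cores, P4ha2 3, Pgk1 2, and Pdk1 and Egln3 1 each. In Bnip3 a pair of cores on opposite strands overlaps in the palindrome CACGTG, which is also an E-box. RefSeq windows were found for 31 of the 33 members, all except Bnip3l and Ndrg1. At least 1 core was present in 24 of the 31 windows, or 77.4%, against 38.6% of all 32851 promoter windows. ACGTG alone was present in 15 of 31, or 48.4%, against 16.6% of all windows. The members' windows were richer in G and C, with a median of 62.8% against 52% over the first listed promoter of each gene, and both cores hold mostly G and C. A match is a run of letters and not a measured binding site.

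Libraries held 17349082 to 30959773 counts. Levels below are counts per 1000000 counts of a library (CPM), always in the order of replicates 1, 2 and 3. Fold changes are log2 values from edgeR, with Cd276KO over control or tumor over culture. A gene was called at a Benjamini-Hochberg adjusted p under 0.05 over all genes tested. Where groups are said not to overlap, the share of all genes without overlap was not counted. Cd276 RNA was lower in HM-1 cultures labelled Cd276KO, at 47.2, 47.7 and 44.8 CPM against 74.2, 93.5 and 91.5 CPM in control cultures (log2 fold change -0.85, SE 0.10, adjusted p = 0.00146). It was 18.3, 18.8 and 21 CPM in ID8 cultures labelled Cd276KO against 21.1, 21.1 and 20.6 CPM in control cultures, which was no call (log2 fold change -0.04, SE 0.08, adjusted p = 0.692), so RNA does not check the ID8 label. Tumors labelled Cd276KO had 73.2, 97.2 and 89.5 CPM against 142, 107 and 116 CPM in control tumors, without overlap but with no call (log2 fold change -0.45, SE 0.14, adjusted p = 0.105). Keratins led by Krt8 marked all 6 groups, with summed epithelial markers of 1881 CPM or more, while Epcam had no count in HM-1 cultures and mesothelial markers were high in ID8 cultures alone (1194 to 2251 CPM, against at most 176.7 CPM elsewhere). HM-1 control library 1 and control tumor library 3 stood apart from the other libraries of their groups. Values without them are given for some results only, and all other values include them.

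In ID8 cultures labelled Cd276KO, nearly the whole gene set stood lower than in control cultures. Of 32 members tested, 28 were called lower and 3 higher, and Gapdh was not called; Adm, with at most 0.152 CPM in any ID8 library, was not tested. Over all 12932 genes tested, 60.7% were called, with 31.3% lower and 29.4% higher. The members' median log2 fold change was -0.51, beside -0.01 over all genes tested. With 1 spread estimated over all 18 libraries, tumors included, 17 members were called lower and 1 higher.

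Bnip3, a mitochondrial protein that recruits autophagosomes, showed the widest difference of all members. It had 0.187, 0.142 and 0.254 CPM in ID8 cultures labelled Cd276KO, against 21.1, 18.1 and 17.9 CPM in control cultures (log2 fold change -6.53, SE 0.19, adjusted p = 2.88e-18). Those levels are 5, 4 and 6 counts in the 3 Cd276KO libraries, so Bnip3 was nearly silent there, while all 3 control libraries held it at a moderate level. Its relative Bnip3l stood at 93.5, 86.5 and 78.9 CPM in Cd276KO cultures against 133, 124 and 125 CPM in control cultures, a far smaller fall (log2 fold change -0.48, SE 0.06, adjusted p = 5.78e-07). P4ha2, a catalytic subunit of collagen prolyl hydroxylase, had 11.6, 13 and 13.1 CPM in Cd276KO cultures against 39.2, 38.6 and 42 CPM in control cultures (log2 fold change -1.60, SE 0.08, adjusted p = 4.85e-14). The related subunit gene P4ha1 fell by less, with 75, 81.2 and 79.7 CPM against 146, 138 and 138 CPM (log2 fold change -0.76, SE 0.06, adjusted p = 9.03e-11). The groups did not overlap for either subunit.

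Vegfa, the main growth factor for blood vessels, had 44.2, 45.4 and 47.8 CPM in ID8 cultures labelled Cd276KO against 118, 109 and 110.5 CPM in control cultures (log2 fold change -1.22, SE 0.06, adjusted p = 4.66e-14). Ndrg1, a stress-responsive gene used as a hypoxia marker, had 22.3, 25.9 and 23.8 CPM against 54.7, 49.7 and 53.3 CPM in control cultures (log2 fold change -1.05, SE 0.07, adjusted p = 2.14e-11). Both stood at less than the lowest control library in every Cd276KO library. Ankrd37, an ankyrin repeat gene, and Kdm3a, a histone demethylase, also fell, by 0.62 and 0.32 on the log2 scale. Car9, a carbonic anhydrase on the cell surface and a classical hypoxia marker, went against the other 8 tested genes of its group, with 1.12, 1.1 and 1.1 CPM in Cd276KO cultures against 0.728, 0.743 and 0.418 CPM in control cultures (log2 fold change 0.88, SE 0.29, adjusted p = 0.0109). Car9 was near 1 CPM in both groups, so the difference rests on few reads, and it was not called without control library 3.

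Among the genes that decide what becomes of pyruvate, Pdk1, the kinase that switches pyruvate dehydrogenase off, had 25.2, 26.8 and 28 CPM in ID8 cultures labelled Cd276KO against 101, 103 and 104 CPM in control cultures (log2 fold change -1.87, SE 0.06, adjusted p = 4.83e-17). Slc16a3, the lactate exporter MCT4, had 28.2, 32 and 31.1 CPM against 63.4, 59.6 and 67.6 CPM in control cultures (log2 fold change -0.99, SE 0.07, adjusted p = 4.63e-11). Ldha, the lactate dehydrogenase subunit that favours lactate formation, had 898, 963 and 969.8 CPM against 1647, 1685 and 1805 CPM in control cultures (log2 fold change -0.78, SE 0.06, adjusted p = 1.69e-10). All 3 genes of this group fell, and in none did a Cd276KO library reach a control library.

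Of the 9 genes of the payoff group, 7 were called lower, led by Pgk1 and Aldoc. Pgk1 is the phosphoglycerate kinase that makes the first ATP of glycolysis. It had 459, 485 and 488 CPM in ID8 cultures labelled Cd276KO against 1346, 1355 and 1414 CPM in control cultures (log2 fold change -1.45, SE 0.06, adjusted p = 1.42e-15). Aldoc, the brain aldolase isoform, had 9.0, 8.44 and 7.63 CPM against 18.1, 16.9 and 18.8 CPM in control cultures (log2 fold change -1.02, SE 0.09, adjusted p = 3.05e-09). Aldoa, Tpi1, Pgam1, Eno1 and Pkm were also called lower, with log2 fold changes between -0.38 and -0.17. Aldoa was no longer called without control library 3 or Cd276KO library 1 or 2, nor Pgam1 with limma voom, without control library 3 or without Cd276KO library 1 or 3. Gapdh did not pass the test, with 4351, 4747 and 4802 CPM against 4357, 4488 and 5187 CPM in control cultures (log2 fold change 0.06, SE 0.07, adjusted p = 0.463). Eno2, the neuronal enolase isoform, was higher, with 3.92, 2.99 and 3.64 CPM in Cd276KO cultures against 2.8, 2.71 and 1.98 CPM in control cultures (log2 fold change 0.56, SE 0.17, adjusted p = 0.00744). The Eno2 groups did not overlap.

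All 4 genes of uptake and the preparatory steps and all 4 of the phosphofructokinase step fell in ID8 cultures labelled Cd276KO. The hexokinase Hk1 had 55.3, 61 and 58.4 CPM against 121, 117 and 129 CPM in control cultures (log2 fold change -0.99, SE 0.06, adjusted p = 3.09e-12). Gpi1, the glucose phosphate isomerase, had 422, 447 and 442 CPM against 642, 653 and 718 CPM in control cultures (log2 fold change -0.54, SE 0.06, adjusted p = 6.76e-08). The glucose transporter Slc2a1 (GLUT1) and the inducible hexokinase Hk2 fell by 0.37 and 0.24 on the log2 scale. Pfkp, the platelet-type phosphofructokinase, had 54, 52.5 and 52.6 CPM against 124, 129.8 and 124 CPM in control cultures (log2 fold change -1.17, SE 0.06, adjusted p = 3.15e-14). Pfkfb4, which with Pfkfb3 makes and breaks down an activator of phosphofructokinase, had 1.87, 2.1 and 2.58 CPM against 4.26, 4.04 and 3.65 CPM in control cultures (log2 fold change -0.80, SE 0.17, adjusted p = 0.000251). None of these 8 genes had a Cd276KO library within the control range. In this comparison 60.7% of all genes tested were called, and the share of all genes without overlap was not counted.

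The oxygen-sensing genes split in ID8 cultures. Egln3, a prolyl hydroxylase that HIF itself induces, had 31.4, 32.9 and 33.4 CPM in cultures labelled Cd276KO against 11.7, 11.8 and 12.1 CPM in control cultures (log2 fold change 1.53, SE 0.08, adjusted p = 5.31e-14). It was the member with the largest rise, and its groups were far apart. Egln1, the main prolyl hydroxylase, had 91.5, 97.8 and 103 CPM against 119.8, 129 and 125 CPM in control cultures (log2 fold change -0.28, SE 0.06, adjusted p = 0.00034). Hif1a had 188, 201 and 199 CPM against 251, 263 and 231 CPM in control cultures (log2 fold change -0.27, SE 0.06, adjusted p = 0.000442). Both fell slightly and without overlap.

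**Figure D1:**
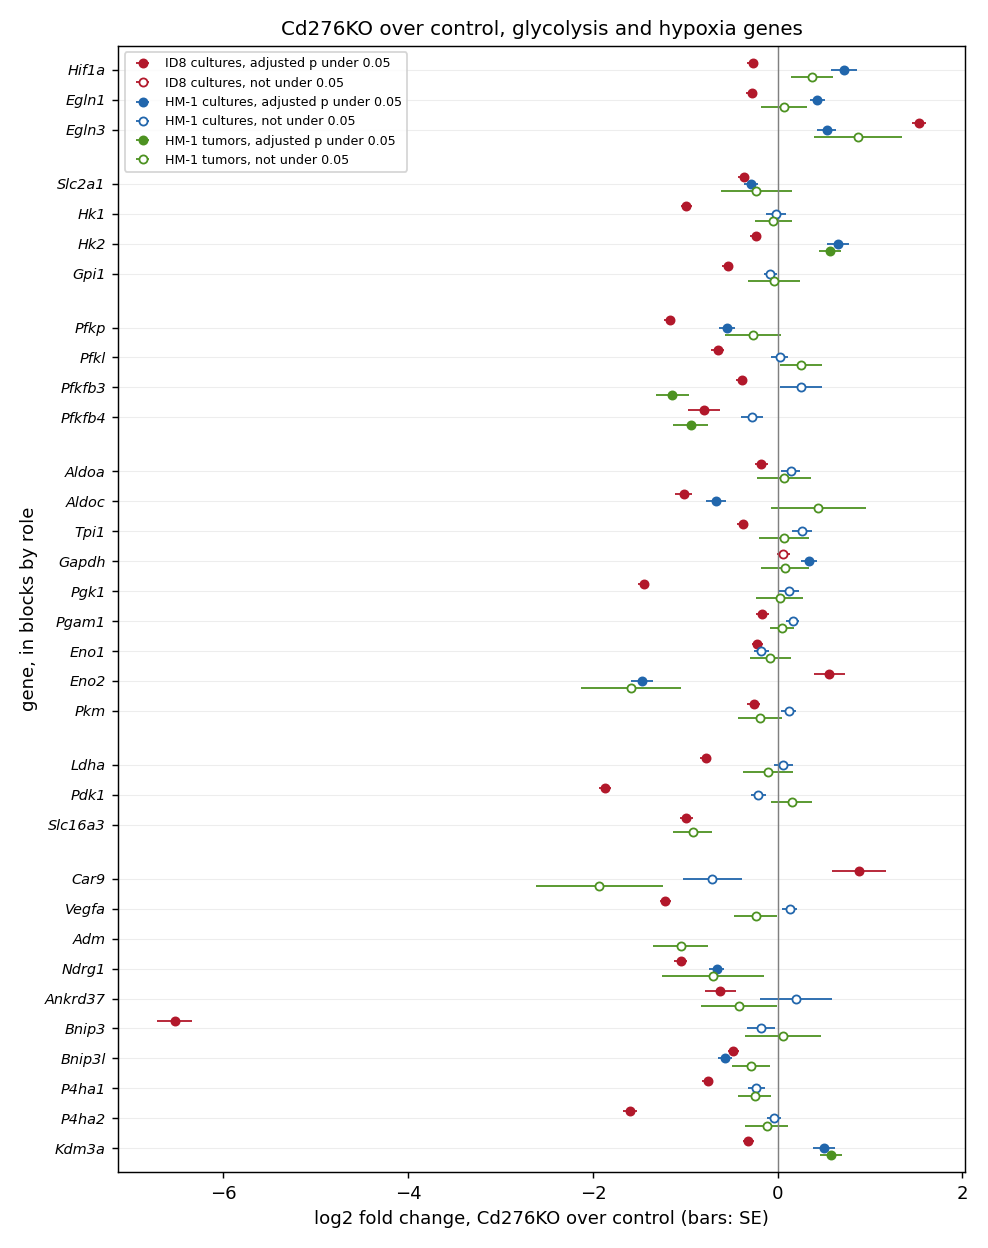
Log2 fold change of Cd276KO over control for each member (rows, in blocks by role, from oxygen sensing at the top to other hypoxia-induced genes at the bottom) in ID8 cultures, HM-1 cultures and HM-1 tumors; bars are SE and filled points have an adjusted p under 0.05. The ID8 points lie left of 0 for 28 called members, with Bnip3 at -6.53, while HM-1 culture points fall on both sides and most tumor points are open.

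In HM-1 cultures the same gene set showed no common direction. Of 31 members tested, 6 were called higher and 6 lower in cultures labelled Cd276KO. Over all 12457 genes tested, 27.7% were called, 11.6% higher and 16.1% lower; among the members tested the share was 38.7%. The members' median log2 fold change was 0.02, beside -0.01 over all genes. Without control library 1 the counts were 13 higher and 11 lower, and without Cd276KO library 1 or library 3 they were 3 higher and 5 lower. Slc16a3 and Adm, under 0.5 CPM in all HM-1 cultures, were not tested.

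All 3 oxygen-sensing genes rose in HM-1 cultures labelled Cd276KO. Hif1a had 483, 439.9 and 461 CPM against 222, 309.7 and 331 CPM in control cultures (log2 fold change 0.72, SE 0.14, adjusted p = 0.0115). Without Cd276KO library 1 or library 3, the adjusted p of Hif1a was 0.0556 and 0.0514. Egln3 had 10.2, 10.1 and 9.9 CPM against 6.58, 7.65 and 7.27 CPM in control cultures (log2 fold change 0.53, SE 0.10, adjusted p = 0.00787), and Egln1 rose by 0.43 on the log2 scale. The groups did not overlap for any of the 3 genes, and control library 1 was the lowest for Hif1a. The other alpha subunit gene, Epas1 (HIF-2alpha), which is not a member, had 0.0955, 0.102 and 0.155 CPM in Cd276KO cultures against 6.64, 12.9 and 11.4 CPM in control cultures (log2 fold change -6.36, SE 0.41, adjusted p = 0.000129). Epas1 was thus nearly silent in HM-1 cultures labelled Cd276KO, at 7 counts over 3 libraries, while ID8 cultures held 12.3, 12.6 and 11.7 CPM with the Cd276KO label and 11.7, 11 and 13.1 CPM in controls.

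Hk2 was higher in HM-1 cultures labelled Cd276KO, with 171, 192 and 183 CPM against 98.8, 133 and 126 CPM in control cultures (log2 fold change 0.65, SE 0.12, adjusted p = 0.00881). Slc2a1, its neighbour in the pathway, was lower, with 119.8, 126 and 118 CPM against 159, 151 and 148 CPM (log2 fold change -0.29, SE 0.08, adjusted p = 0.0285). The groups lay apart for both genes, in opposite directions. The Slc2a1 call was lost with no filter, with a replicate block, without any 1 Cd276KO library and without control library 2 or 3, with an adjusted p of up to 0.439 over all alternatives. Pfkp had 31.8, 35.9 and 35.6 CPM against 48.6, 52.2 and 54.8 CPM in control cultures (log2 fold change -0.55, SE 0.09, adjusted p = 0.00457), and it shares 748 exon bases with Pitrm1 on the opposite strand, whose reads cannot be kept apart without a stated strand setting.

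Of the payoff group, Eno2 showed the widest difference, with 2.67, 2.56 and 2.63 CPM in HM-1 cultures labelled Cd276KO against 6.92, 8.09 and 7.39 CPM in control cultures (log2 fold change -1.47, SE 0.12, adjusted p = 0.000264). Aldoc had 4.15, 4.51 and 4.59 CPM against 7.15, 6.71 and 7.77 CPM (log2 fold change -0.67, SE 0.11, adjusted p = 0.00646). Both fell, with no overlap between the groups. Gapdh was higher, with 2179, 2344 and 2356 CPM against 2028, 1779 and 1781 CPM in control cultures (log2 fold change 0.34, SE 0.09, adjusted p = 0.0371). That call was lost with upper-quartile scaling, no filter or a replicate block, without any 1 Cd276KO library and without control library 2 or 3, with an adjusted p of up to 0.217 over all alternatives. Eno1 had 1055, 1176 and 1094 CPM against 1311, 1281 and 1268 CPM, which did not pass the test (log2 fold change -0.18, SE 0.08, adjusted p = 0.142). Neither Ldha nor Pdk1 was called, and Pdk1 had 47.1, 44.4 and 49.6 CPM against 52.2, 57 and 59.1 CPM in control cultures (log2 fold change -0.21, SE 0.08, adjusted p = 0.0978).

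Among the other hypoxia-induced genes, Ndrg1 and Bnip3l fell in HM-1 cultures labelled Cd276KO and Kdm3a rose. Ndrg1 had 34.9, 36.5 and 38.5 CPM against 56.3, 59.5 and 63 CPM in control cultures (log2 fold change -0.66, SE 0.08, adjusted p = 0.00163). Bnip3l had 66.3, 60 and 63.8 CPM against 89.8, 98.1 and 102 CPM (log2 fold change -0.57, SE 0.08, adjusted p = 0.00299). Kdm3a had 56.4, 54.3 and 55.1 CPM against 32.4, 45.5 and 42.8 CPM in control cultures (log2 fold change 0.50, SE 0.12, adjusted p = 0.0261). In each of the 3 genes the groups lay apart, but Kdm3a was not called with a replicate block, without any 1 Cd276KO library or without control library 3, with an adjusted p of up to 0.0976. Vegfa and Ankrd37 had positive log2 fold changes of 0.13 and 0.20 that did not pass the test. Bnip3, nearly silent in the ID8 cultures labelled Cd276KO, had 14.3, 15.5 and 13.1 CPM in HM-1 cultures labelled Cd276KO against 20.2, 14.7 and 15.2 CPM in HM-1 control cultures, with overlap (log2 fold change -0.18, SE 0.15, adjusted p = 0.4).

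The lines differed in direction for several members, and that difference was tested directly as an interaction over the 12 culture libraries. The knockout effect in ID8 minus that in HM-1 was below 0 for 23 of 32 members called and above 0 for 3, against 40.4% of 14208 genes called in either direction, 20.7% lower and 19.8% higher. Hif1a, Egln1, Hk2 and Kdm3a were each called higher in HM-1 cultures labelled Cd276KO and lower in ID8 cultures so labelled, with differences of -1.0, -0.71, -0.89 and -0.83. Eno2 moved the other way, lower in HM-1 and higher in ID8, with a difference of 2.02 (SE 0.21, adjusted p = 9.51e-06). Bnip3 had the widest difference, -6.36 (SE 0.28, adjusted p = 5.12e-09). Slc2a1, Pfkp, Aldoc, Ndrg1 and Bnip3l were called lower in both lines, and Egln3 was called higher in both. Among these, the HM-1 calls of Hif1a, Slc2a1 and Kdm3a were lost in alternatives named above. With 1 fit over all 18 libraries, 3 members were called higher and 2 lower in HM-1 cultures. For Bnip3l the difference between lines was 0.07 (SE 0.11, adjusted p = 0.631).

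**Figure D2:**
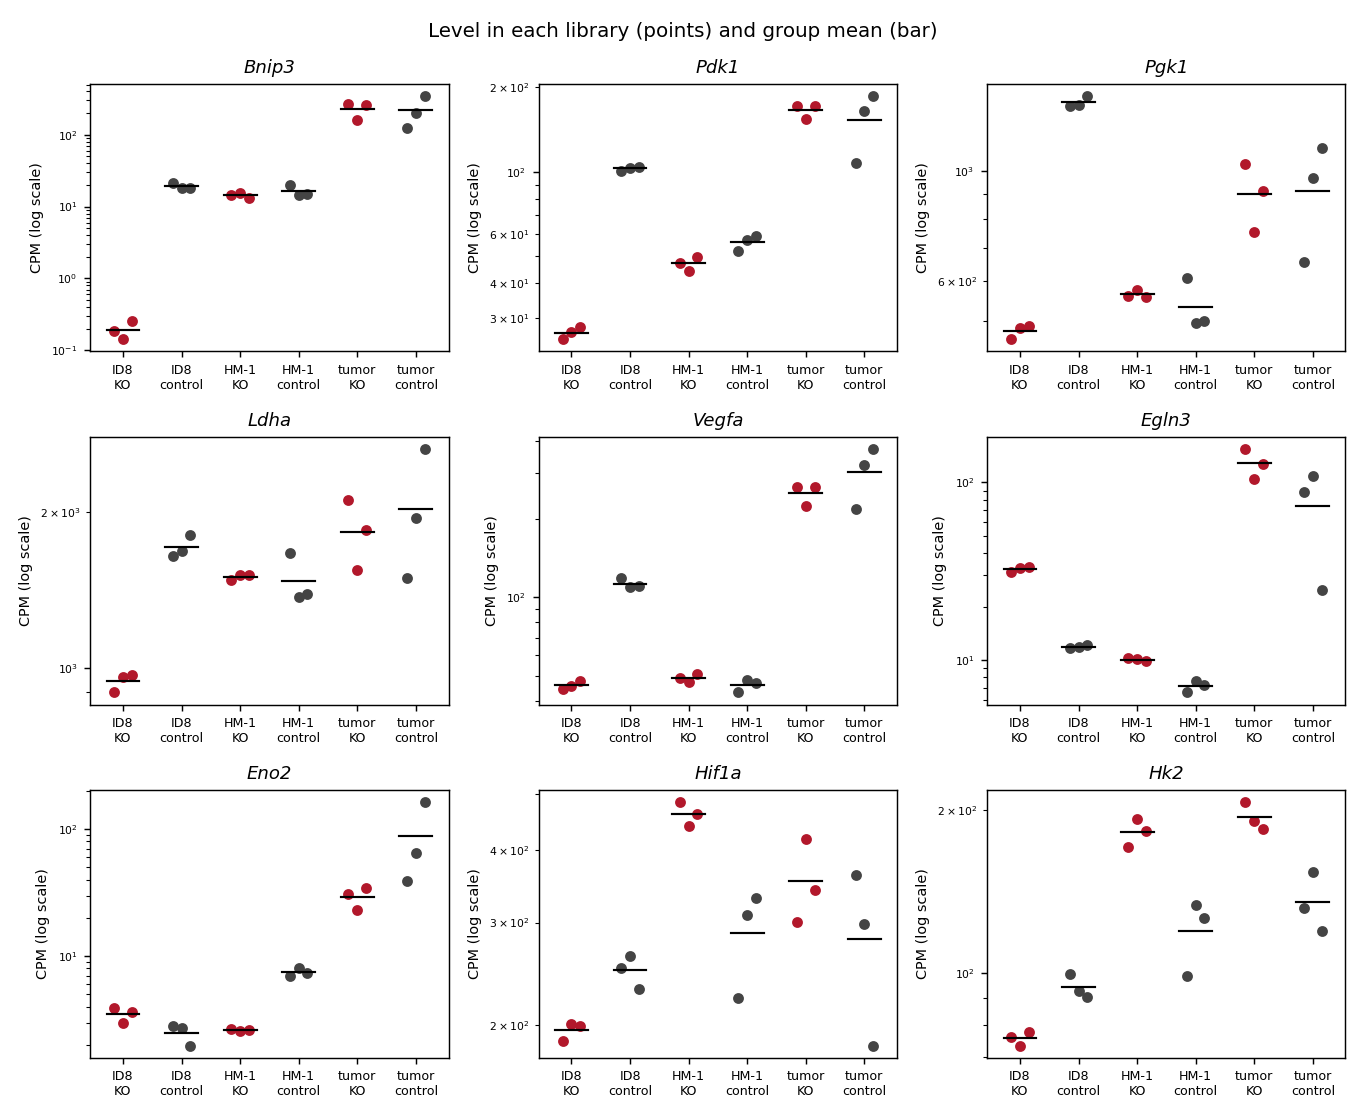
Level of 9 members in CPM (log axis) in every library, with Cd276KO libraries in red and control libraries in grey; points are libraries and bars are group means of 3. Bnip3 lies below 0.3 CPM in the 3 ID8 libraries labelled Cd276KO and above 10 CPM in every other library, and every tumor library lies above every culture library for Bnip3 and Eno2.

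In tumors, Cd276KO and control differed in few members. Of 33 tested, Hk2 and Kdm3a were called higher and Pfkfb3 and Pfkfb4 lower, against 5.38% of 15345 genes called, 2.2% higher and 3.18% lower. The members' median log2 fold change was -0.08, beside -0.03 over all genes. None of these 4 genes, nor any other member, was called without control tumor library 1 or 2 or without any 1 Cd276KO library, while 2 higher and 3 lower were called without control tumor library 3. DESeq2 called 6 members lower and 2 higher. In bulk tissue, fewer cells of a type and less RNA per cell cannot be told apart.

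Hk2 had 206, 191 and 185 CPM in Cd276KO tumors against 132, 153 and 119.5 CPM in control tumors (log2 fold change 0.57, SE 0.12, adjusted p = 0.0483). Kdm3a had 171, 169 and 189.7 CPM against 111, 142 and 111 CPM in control tumors (log2 fold change 0.58, SE 0.12, adjusted p = 0.048). Both were also called higher in the HM-1 cultures labelled Cd276KO. Those are separate libraries, but the tumors were grown from HM-1 cells of the same labels. The culture call of Kdm3a was lost in the alternatives named above. Pfkfb3, a hypoxia-inducible isoform of the bifunctional enzyme, had 12.6, 18.7 and 19.4 CPM against 43.3, 39 and 32.7 CPM in control tumors (log2 fold change -1.14, SE 0.18, adjusted p = 0.0272). Pfkfb4 had 23.3, 38.9 and 31.1 CPM against 59.5, 56.3 and 66.4 CPM in control tumors (log2 fold change -0.94, SE 0.19, adjusted p = 0.0417). No tumor library of one group lay in the range of the other for these 4 genes.

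Slc16a3, Adm, Eno2 and Car9 were also lower in every Cd276KO tumor than in any control tumor, without passing the test. Among all members, 6 lay lower in this way, 2 lay higher and 25 overlapped. The share of all genes without overlap was not counted, so these numbers say nothing of the members as a set. Slc16a3 had 15.9, 20.1 and 23 CPM against 31.1, 36.1 and 46.6 CPM in control tumors (log2 fold change -0.92, SE 0.21, adjusted p = 0.0572). Adm, the vasodilator peptide adrenomedullin, had 2.23, 2.64 and 3.52 CPM against 4.78, 5.96 and 6.99 CPM (log2 fold change -1.05, SE 0.30, adjusted p = 0.0906). Eno2 had 30.8, 23.1 and 34.4 CPM against 39.4, 64.4 and 163 CPM (log2 fold change -1.59, SE 0.54, adjusted p = 0.132). In Eno2 and in Car9, with 4.4, 4.17 and 5.42 CPM against 5.5, 11.2 and 36.7 CPM (log2 fold change -1.93, SE 0.69, adjusted p = 0.149), control library 3 was far above the other control tumors. Without that library the log2 fold changes of Eno2 and Car9 were -0.74 and -0.76. Egln3 had 154, 105 and 128 CPM against 88.8, 108 and 24.7 CPM in control tumors, and control library 3 was here the lowest of all (log2 fold change 0.87, SE 0.48, adjusted p = 0.308). Pfkl, Pdk1 and Bnip3 had positive values of 0.25, 0.15 and 0.06, and Eno1 and Pkm negative ones of -0.08 and -0.19, none past the test.

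Control tumors varied widely among themselves. The 10 other hypoxia-induced members summed to 1825, 1348 and 1761 CPM in Cd276KO tumors and to 1285, 1861 and 3006 CPM in control tumors. Of the 33 members, 26 were highest in control tumor library 3 among control tumors, or 78.8%, against 38.6% of the 11172 genes that averaged 5 CPM or more there. That library also held the least fibroblast RNA, since 6 fibroblast markers summed to 3566, 6274 and 5176 CPM in Cd276KO tumors and to 17670, 5791 and 473 CPM in control tumors. Its endothelial markers were lowest too, with 153, 241.9 and 191.6 CPM in Cd276KO tumors and 315.6, 182.5 and 79.8 CPM in control tumors. Among Cd276KO tumors, library 2 was the lowest for 26 of the 31 members averaging 5 CPM or more, or 83.9%, against 34.8% of genes, and it held the most fibroblast and endothelial marker RNA. The part of host tissue content in the members' levels was not tested.

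The groups also differed in host markers. The 10 macrophage markers summed to 598.3, 1153 and 935 CPM in Cd276KO tumors and to 2139, 1549 and 1290 CPM in control tumors, and Cd68 and Itgam were called lower among them. The 7 neutrophil markers summed to 13.9, 8.98 and 13.8 CPM in Cd276KO tumors and to 31.6, 33.6 and 119.5 CPM in control tumors, with Csf3r called lower. The same 7 markers summed to 10.93, 10.45 and 11.55 CPM in HM-1 Cd276KO cultures, where Ly6g averaged 10.51 CPM. HM-1 control cultures had at most 5.502 CPM. The macrophage markers summed to 55.27 CPM or more in HM-1 Cd276KO cultures, where Mrc1 averaged 53.55 CPM, and to at most 26.15 CPM in control cultures. The 2 tumor sums therefore cannot be read as host RNA alone. The 8 T and NK cell markers summed to 2.56, 5.49 and 6.74 CPM in Cd276KO tumors and to 17.4, 7.88 and 13.8 CPM in control tumors, with Gzmb called lower. The calls of Cd68, Itgam, Csf3r and Gzmb were lost without any 1 Cd276KO tumor library and with a replicate block. In each of those fits 0 of all genes tested were called lower. The 6 keratinocyte markers summed to 213 CPM in control tumor library 3 and to 6.94 to 7.49 CPM in the other 5 tumors. The 8 striated muscle markers summed to 121.9, 887.6 and 958.7 CPM in Cd276KO tumors and to 143.8, 1.64 and 2.35 CPM in control tumors. Their part in the differences of Hk2, Kdm3a, Pfkfb3 and Pfkfb4 was not tested.

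**Figure D3:**
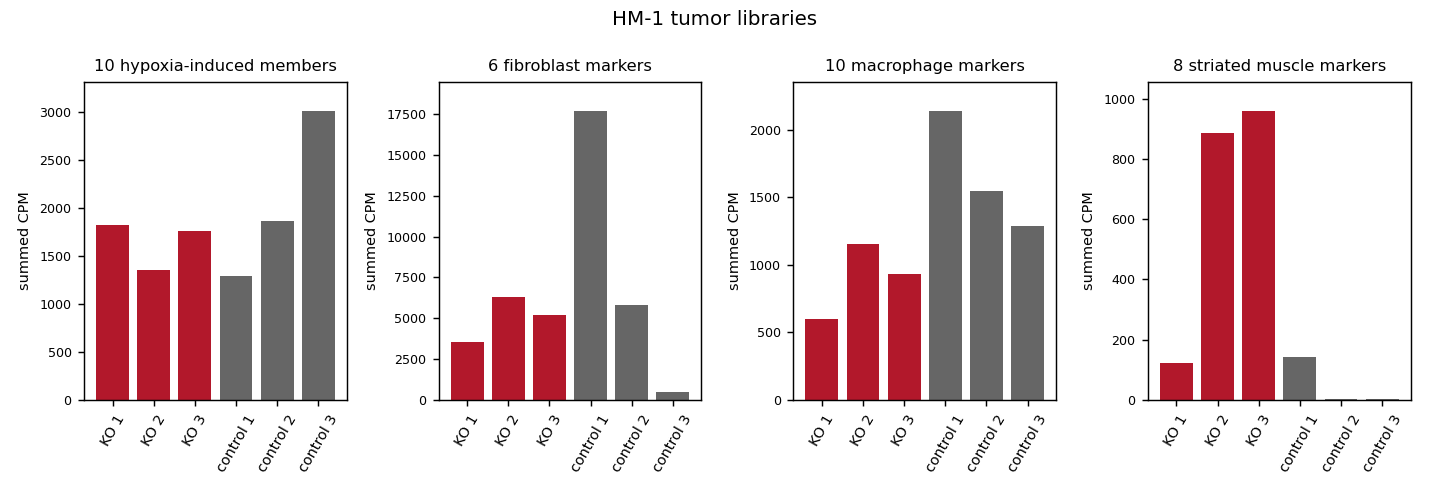
Summed CPM (bars, linear axes from 0) in each of the 6 HM-1 tumor libraries, Cd276KO in red and control in grey, for the 10 other hypoxia-induced members and for fibroblast, macrophage and striated muscle markers. Control library 3 has the highest hypoxia sum (3006 CPM) and the lowest fibroblast sum (473 CPM), and macrophage sums are lower in all Cd276KO tumors (at most 1153 CPM) than in control tumors (at least 1290 CPM).

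Whether the knockout effect in tumors differed from that in HM-1 cultures was tested as an interaction. No member of 33 was called by edgeR, against 2.84% of 15623 genes called. At an unadjusted p under 0.05 were 3 of the 33 members, beside 2279 of the 15623 genes. DESeq2 called 1 member and limma voom 7, and without control tumor library 3 edgeR called 2 members above and 1 below 0. Pfkfb3 came closest, with an effect in tumors minus cultures of -1.40 (SE 0.33, adjusted p = 0.0507). In cultures Pfkfb3 had 12.6, 12.2 and 9.02 CPM with the Cd276KO label and 6.41, 11.4 and 11.3 CPM in controls, with overlap.

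Most of the hypoxia-induced members were higher in tumors than in the cultured cells of the same genotype. In Cd276KO tumors over Cd276KO cultures, 24 of 33 members were called higher and 2 lower, against 75.7% of 14330 genes called, 41.2% higher and 34.5% lower. In control tumors over control cultures, 22 were called higher and 0 lower by edgeR, against 41.8% of 14609 genes called, 25.3% higher and 16.6% lower. At an unadjusted p under 0.05 were 25 of the 33 members, beside 7392 of the 14609 genes. DESeq2 called 25 members higher and 0 lower, and limma voom 26 higher and 2 lower. The members' median log2 fold change was 1.27 in Cd276KO and 1.31 in control, beside 0.08 and 0.05 over all genes. Calls over all genes in control split into 3689 higher and 2418 lower, and with upper-quartile scaling into 4165 and 1701, which raised the median over all genes to 0.19. The 2 comparisons share tumor and culture libraries with the knockout comparisons above, so their values are set side by side only. Tumors hold host cells that cultures lack, and their part in these differences was not tested.

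The 10 other hypoxia-induced members were called higher in both comparisons. Adm was almost absent from culture, with 3 counts over the Cd276KO cultures and 2 over the control cultures. Its ratio of tumor to culture was 55.3 in Cd276KO (95% exact counting interval 18.6 to 271) and 194 in control (53.2 to 1605). Bnip3 had 266, 163 and 259.8 CPM in Cd276KO tumors against 14.3, 15.5 and 13.1 CPM in Cd276KO cultures (log2 fold change 3.88, SE 0.23, adjusted p = 6.26e-06). It had 124, 198 and 348 CPM in control tumors against 20.2, 14.7 and 15.2 CPM in control cultures (log2 fold change 3.60, SE 0.42, adjusted p = 0.00103). Every tumor library thus held several times the Bnip3 level of any HM-1 culture.

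Car9 had 4.4, 4.17 and 5.42 CPM in Cd276KO tumors against 0.477, 0.615 and 0.258 CPM in Cd276KO cultures (log2 fold change 3.22, SE 0.30, adjusted p = 1.66e-05). In control tumors it had 5.5, 11.2 and 36.7 CPM against 0.681, 0.789 and 0.803 CPM in control cultures (log2 fold change 4.42, SE 0.76, adjusted p = 0.00396). Control tumor library 3 held the highest Car9 level, and without it the control value was 3.27. Ndrg1 had 537, 318 and 490.5 CPM in Cd276KO tumors against 34.9, 36.5 and 38.5 CPM in Cd276KO cultures (log2 fold change 3.49, SE 0.22, adjusted p = 7.54e-06), and 325, 529 and 1351 CPM in control tumors against 56.3, 59.5 and 63 CPM in control cultures (log2 fold change 3.50, SE 0.53, adjusted p = 0.00258). Vegfa had 265, 224 and 265 CPM in Cd276KO tumors and 218, 322 and 372 CPM in control tumors, with log2 fold changes over culture of 2.23 and 2.58. Tumor and culture libraries did not overlap in any of these genes.

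The lactate exporter Slc16a3 was under 0.5 CPM in HM-1 culture and had 15.9, 20.1 and 23 CPM in Cd276KO tumors (log2 fold change 5.52, SE 0.21, adjusted p = 1.8e-07) and 31.1, 36.1 and 46.6 CPM in control tumors (log2 fold change 6.62, SE 0.28, adjusted p = 5.52e-05). Pdk1 had 172, 154 and 172 CPM in Cd276KO tumors against 47.1, 44.4 and 49.6 CPM in Cd276KO cultures (log2 fold change 1.69, SE 0.08, adjusted p = 3.75e-07). Control tumors had 108, 165 and 187 CPM against 52.2, 57 and 59.1 CPM in control cultures (log2 fold change 1.31, SE 0.22, adjusted p = 0.00344). Both genes rose, whereas Ldha was not called in either comparison, with log2 fold changes of 0.16 in Cd276KO and 0.32 in control.

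In the payoff group the enolase and aldolase isoforms of brain rose most. Eno2 had 30.8, 23.1 and 34.4 CPM in Cd276KO tumors against 2.67, 2.56 and 2.63 CPM in Cd276KO cultures (log2 fold change 3.35, SE 0.17, adjusted p = 5.99e-07), and 39.4, 64.4 and 163 CPM in control tumors against 6.92, 8.09 and 7.39 CPM in control cultures (log2 fold change 3.45, SE 0.54, adjusted p = 0.0028). Aldoc had 90.4, 41.2 and 68.8 CPM in Cd276KO tumors against 4.15, 4.51 and 4.59 CPM in Cd276KO cultures (log2 fold change 3.79, SE 0.35, adjusted p = 8.6e-05), and 24.7, 42 and 83.4 CPM in control tumors against 7.15, 6.71 and 7.77 CPM in control cultures (log2 fold change 2.66, SE 0.44, adjusted p = 0.00353). Aldoa, Tpi1 and Pgk1 were called higher in Cd276KO, with log2 fold changes of 0.68, 0.50 and 0.54 (adjusted p = 0.00233, 0.00402 and 0.00321). In control they had 0.73, 0.66 and 0.63, which edgeR did not call and DESeq2 and limma voom did. Eno1, Pkm and Gapdh did not pass the test in either genotype. Eno1 had log2 fold changes of -0.15 in Cd276KO and -0.26 in control, Pkm -0.15 and 0.13, and Gapdh -0.08 and 0.16. With upper-quartile scaling the Cd276KO values of Eno1, Pkm and Gapdh turned positive, at most 0.09. Pgam1 was called lower in Cd276KO tumors, with 224, 202 and 222 CPM against 248, 246 and 235 CPM in Cd276KO cultures (log2 fold change -0.30, SE 0.07, adjusted p = 0.00388), and had -0.21 in control, which was no call. With upper-quartile scaling Pgam1 was not called in Cd276KO either.

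Slc2a1 had 432, 388 and 424 CPM in Cd276KO tumors against 119.8, 126 and 118 CPM in Cd276KO cultures (log2 fold change 1.64, SE 0.08, adjusted p = 3.49e-07). In control tumors it had 319.7, 353 and 808 CPM against 159, 151 and 148 CPM in control cultures (log2 fold change 1.56, SE 0.37, adjusted p = 0.0138), and control tumor library 3 was again the highest. Without control culture library 2 or 3, the control differences of Slc2a1 and of Egln1 were not called. Gpi1 rose by 0.86 in Cd276KO and 0.80 in control, while neither hexokinase was called, with Hk1 at -0.13 and -0.11. Pfkp rose by 1.70 and 1.40, and Pfkl, the liver-type phosphofructokinase, by 1.27 and 1.03. Pfkfb3 rose by 0.45 in Cd276KO (adjusted p = 0.0401) and by 1.85 in control (adjusted p = 0.00134). Pfkfb4 had -0.17 in Cd276KO, which was no call, and rose by 0.48 in control. The calls of Pfkfb4 and Gpi1 in control and of Pfkfb3 in Cd276KO did not withstand leaving out most single libraries: Pfkfb4 lost it without any 1 library, Gpi1 without any except control tumor library 1, and Pfkfb3 without any except Cd276KO tumor library 1.

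Of the oxygen-sensing genes, Egln3 had 154, 105 and 128 CPM in Cd276KO tumors against 10.2, 10.1 and 9.9 CPM in Cd276KO cultures (log2 fold change 3.55, SE 0.17, adjusted p = 7.26e-07), and 88.8, 108 and 24.7 CPM in control tumors against 6.58, 7.65 and 7.27 CPM in control cultures (log2 fold change 3.21, SE 0.51, adjusted p = 0.0029). Egln1 rose by 0.59 and 0.93. Hif1a did not follow them, and was lower in Cd276KO tumors with 300.1, 418 and 341 CPM against 483, 439.9 and 461 CPM in Cd276KO cultures (log2 fold change -0.52, SE 0.10, adjusted p = 0.0014). In control tumors Hif1a had 362, 298 and 184 CPM against 222, 309.7 and 331 CPM in control cultures, with overlap (log2 fold change -0.17, SE 0.25, adjusted p = 0.624).

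**Figure D4:**
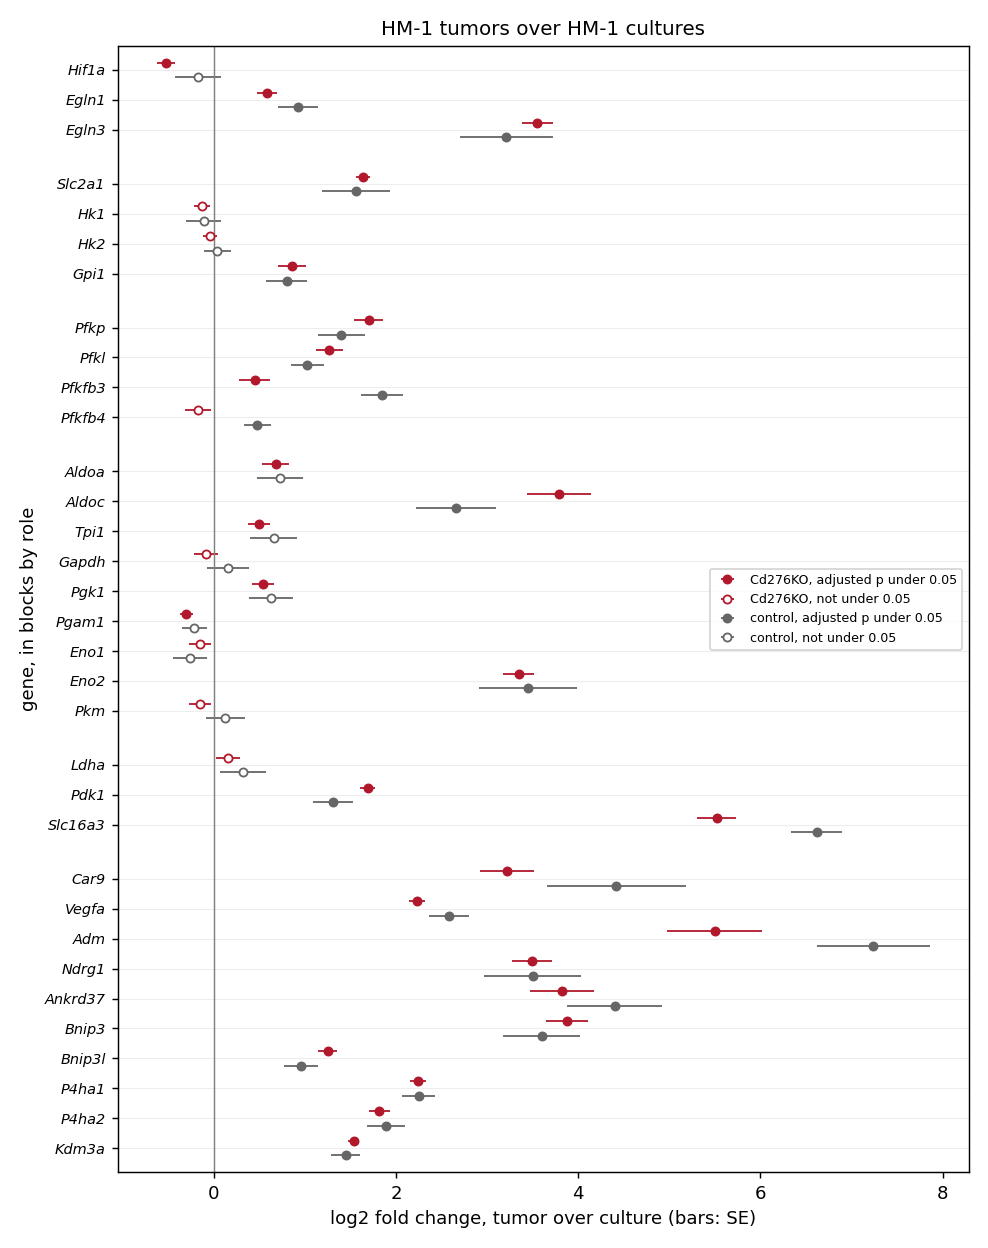
Log2 fold change of HM-1 tumors over HM-1 cultures for each member (rows, in blocks by role), in Cd276KO (red) and in control (grey); bars are SE and filled points have an adjusted p under 0.05. The block of other hypoxia-induced genes and Slc16a3, Aldoc, Eno2 and Egln3 lie to the right, up to 7.24 for Adm in control, while Hif1a, Hk1, Hk2, Gapdh, Pgam1, Eno1 and Pkm lie near 0.

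Per length of exon, Gapdh, Pkm, Ldha, Aldoa, Tpi1, Pgk1 and Eno1 held the 7 highest levels of the gene set in all 6 groups. In RPKM (CPM per kilobase of annotated exon), ID8 cultures labelled Cd276KO averaged 1121 for Gapdh, 430.3 for Pkm, 285 for Ldha and 213 for Pgk1, against 1132, 542, 517 and 611 in control cultures. Pgk1 was second among the members in ID8 control cultures and seventh in those labelled Cd276KO. Isoforms differed between the lines: Hk2 averaged 30.4 in HM-1 cultures labelled Cd276KO and 20 in HM-1 controls, and 12.7 and 15.8 in the ID8 cultures. Slc16a3 averaged 0.0727 in HM-1 cultures labelled Cd276KO and 0.0659 in HM-1 controls, and 5.72 and 11.9 in the ID8 cultures. Eno2 averaged 6.25 in Cd276KO tumors and 18.9 in control tumors, against 204 and 220.0 for Eno1. In tumors, Bnip3 averaged 101 with Cd276KO and 98.6 in controls, which put it near Slc2a1 at 118 and 141. Gapdh has 180 near-identical copies in the annotation that took 5.69% as many counts as Gapdh itself. Eno1 has 7, Eno1b among them, that took 14.9% as many counts as Eno1. How reads matching both a gene and its copies were handled is not stated. These shares therefore do not bound the error in the levels of Gapdh and Eno1.

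Neighbouring pathways were counted from lists drawn up beside the members. In ID8 cultures labelled Cd276KO, the other hypoxia-induced genes outside the members were lower in 11 and higher in 3 of 23 tested, or 60.9% called, against 60.7% of all genes. The adenylate kinase Ak4 averaged 3.12 ± 0.367 CPM against 28.7 ± 2.48 CPM in control cultures (SD over 3 libraries; log2 fold change -3.12, SE 0.11, adjusted p = 6.49e-17), and the glycogen synthase Gys1 19.8 ± 1.75 CPM against 57.8 ± 0.293 CPM (log2 fold change -1.46, SE 0.07, adjusted p = 4.91e-14). The remaining glycolytic genes did not share the members' direction, with 7 higher and 4 lower of 12, or 91.7% called. The muscle-type phosphofructokinase Pfkm averaged 28.3 ± 2.98 CPM against 74.2 ± 2.19 CPM (log2 fold change -1.32, SE 0.07, adjusted p = 2.8e-13), and the enolase Eno3 40.1 ± 0.398 CPM against 23.8 ± 1.72 CPM (log2 fold change 0.83, SE 0.07, adjusted p = 9.68e-10). Of 12 genes of pyruvate dehydrogenase and its kinases, 6 were lower and 1 higher (58.3%), with Pdk4 at -1.43 and Pdk3 at -0.96. Of 7 pentose phosphate genes, 3 were lower and 1 higher (57.1%), both shares being near that of all genes. They were led by G6pdx, the first enzyme of that pathway, at -1.13 (129 ± 6.19 CPM against 298 ± 10.3 CPM), followed by Rpia at -0.25. Of 3 gluconeogenic genes, Pck2 fell by 0.73 and Pcx rose by 0.20.

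In HM-1 cultures labelled Cd276KO, 8 of 23 hypoxia-induced genes outside the members were lower and 2 higher (43.5%), against 16.1% lower and 11.6% higher over all genes. Ddit4, an inhibitor of mTOR signalling, averaged 8.87 ± 1.35 CPM against 18.9 ± 0.896 CPM in control cultures (log2 fold change -1.05, SE 0.13, adjusted p = 0.00181). The branching enzyme Gbe1 had the same log2 fold change of -1.05. All 3 tested gluconeogenic genes fell, with G6pc3, a glucose phosphatase subunit, at 13.9 ± 1.2 CPM against 40.2 ± 2.88 CPM (log2 fold change -1.50, SE 0.10, adjusted p = 0.000171). Pcx followed at -0.85. Of 10 other glycolytic genes 3 were called (30%, against 27.7% of all genes), with Pfkm at -0.72 and Bpgm at 0.39. Of 11 genes of pyruvate dehydrogenase and its kinases 4 were called lower (36.4%), led by Pdp1 at -0.51 and Pdhb at -0.48, and of 7 pentose phosphate genes G6pdx was lower at -0.49 and Rpe higher at 0.29. Among 11 HIF pathway regulators tested, Epas1 alone was called. In ID8 cultures, 5 of 12 such regulators were higher and 4 lower (75%, against 60.7% of all genes), with the ubiquitin ligase Siah2 at -0.76 and Elob at 0.42.

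In Cd276KO tumors over control tumors, 3 of 28 hypoxia-induced genes outside the members were called, all lower, against 5.38% of all genes. Ak4 had 1.22, 1.41 and 1.21 CPM against 6.72, 8.82 and 18.3 CPM in control tumors (log2 fold change -3.11, SE 0.46, adjusted p = 0.026). Car12, a carbonic anhydrase related to Car9, was also among them, at a level under 5 CPM. Arnt2, a partner of the HIF alpha subunits, had 0.334, 0.213 and 0.173 CPM against 5.34, 5.21 and 6.52 CPM in control tumors (log2 fold change -4.50, SE 0.40, adjusted p = 0.0146), the only regulator called of 12. All these calls were lost without any 1 Cd276KO tumor library and with a replicate block, where 0 of all genes tested were called lower.

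Over culture, Cd276KO tumors had 23 of 26 hypoxia-induced genes outside the members higher and 1 lower, against 41.2% and 34.5% of all genes. Control tumors had 21 of 27 higher, against 25.3% of all genes. Lox, a collagen crosslinking oxidase that fibroblasts also make, had 1 count over the cultures of each genotype and 11.7, 54.7 and 43.1 CPM in Cd276KO tumors and 184, 52.2 and 1.82 CPM in control tumors. Its ratio of tumor to culture was 2283 in Cd276KO (95% exact counting interval 409 to 90219) and 5830 in control (1046 to 230299). Lox followed the fibroblast markers across control tumors, being lowest in library 3, and their part in it was not tested. Epas1 had 28, 51.2 and 37.6 CPM in Cd276KO tumors, although the Cd276KO cultures were nearly without it (log2 fold change 8.17, SE 0.34, adjusted p = 2.99e-07), and 67.4, 42.1 and 44.4 CPM in control tumors (log2 fold change 2.18, SE 0.28, adjusted p = 0.00154). Endothelial cells, in which Epas1 is well known, were represented by marker sums of 153 CPM or more in Cd276KO tumors against at most 5.44 CPM in Cd276KO cultures, and their part in it was not tested. The pentose phosphate genes went the other way, with 6 of 7 lower in Cd276KO tumors, against 34.5% of all genes, and 5 of 7 in control tumors, against 16.6%. Pgd, the second dehydrogenase of that pathway, averaged 127 ± 6.85 CPM in Cd276KO tumors against 323 ± 10.8 CPM in Cd276KO cultures (log2 fold change -1.48, SE 0.07, adjusted p = 4.85e-07), and 179 ± 37.3 CPM in control tumors against 351 ± 12 CPM in control cultures (log2 fold change -1.11, SE 0.19, adjusted p = 0.00354).

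After these, Ddit4 rose by 4.04 in Cd276KO tumors over cultures. Tmem45a, a transmembrane protein, had 13.9, 11.5 and 4.54 CPM in control tumors and 5 counts over the control cultures (log2 fold change 6.84, SE 0.81, adjusted p = 0.0011). Taldo1 fell by 1.08 in Cd276KO and Rpia by 1.03 in control, and Cul2 by 0.71 in Cd276KO and 0.68 in control. HIF pathway regulators were called in 10 of 11 tested in Cd276KO, or 90.9%, against 75.7% of all genes. In control they were called in 4 of 12, or 33.3%, against 41.8% of all genes.

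Of 13 other glycolytic genes, 7 were higher and 6 lower in Cd276KO tumors, or 100% called, against 75.7% of all genes. In control tumors 3 were higher and 5 lower, or 61.5%, against 41.8% of all genes. Tigar, a phosphatase that lowers glycolytic flux, fell by 1.68 in Cd276KO and 1.26 in control. Pgam2, the muscle isoform of phosphoglycerate mutase, had 2.67, 14.9 and 12.1 CPM in Cd276KO tumors against 1.24, 1.33 and 1.08 CPM in Cd276KO cultures (log2 fold change 2.87, SE 0.60, adjusted p = 0.00342). It was high in the 2 Cd276KO tumors with the most striated muscle marker RNA, whose part in it was not tested. Slc2a3, the glucose transporter GLUT3, had 21.3, 21.9 and 8.65 CPM in control tumors and 1 count over the control cultures, a ratio of 1186 (95% exact counting interval 212 to 46867).

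Of the genes of pyruvate dehydrogenase and its kinases, 3 were higher and 7 lower of 12 in Cd276KO (83.3%, against 75.7% of all genes). In control 1 was higher and 6 were lower of 11 (63.6%, against 41.8% of all genes). Pdk2 rose by 1.12 and Pdhx fell by 0.85 in Cd276KO, and Pdhx and Pdp2 fell by 0.84 and 0.70 in control. The gluconeogenic genes Pcx and G6pc3 rose by 0.77 and 0.75 in Cd276KO, while Pck2 and Pcx fell by 0.55 and 0.53 in control. The knockout effect on Pcx in tumors minus that in cultures was 1.29 (adjusted p = 0.000553).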

How the data were processed

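RNA-seq counts per gene were analysed for 18 libraries in 6 groups of 3. The deposited values are whole-number counts of reads per gene for 54752 mouse Ensembl genes, 20189 of them without a count. The authors trimmed reads with Trim Galore, aligned them with STAR and counted them with HTSeq on GRCm38/mm10, per the submitters' processing notes. No source used here states the strand setting or how reads with several matches were handled. Symbols came from GENCODE M21.

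Each comparison was fitted on its own groups with edgeR 4.0.16 (TMM, filterByExpr, quasi-likelihood test) in R 4.3.3, with Benjamini-Hochberg adjustment over all genes tested, and the code was tested on simulated data. The interactions used the 4 groups concerned. Alternatives were upper-quartile, relative log expression and total-count scaling, DESeq2 1.42.0, limma 3.58.1 voom with sample quality weights, no filter, a replicate block, 1 fit over all 18 libraries, and each library left out. Total-count scaling was chosen after seeing the data. Depth was 17349082 to 30959773 counts a library, and counting intervals cover counting error only. Libraries 1, 2 and 3 of different groups share a number without a stated pairing, and in no comparison did all 3 same-numbered pairs of libraries correlate above 0.1.

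The members and all gene lists were chosen with earlier results of these data known. In each comparison the text names the called members of each role with the 2 largest changes, members going against most of their role, and of the pathway lists, for the knockout and the tumor over culture comparisons, the 2 called genes with the largest change at a mean of at least 5 CPM. It was not applied to the marker lists or, for the pathway lists, to the interactions. One gene that the rule names is not reported here. Members added after their values were seen include Ldha, Vegfa, Bnip3l, P4ha1 and Ndrg1 in ID8, and Slc16a3, Adm, Car9 and Egln3 in tumors. Arnt2 and Car12, which are not members, were added in the same way. Hif1a in ID8, and Ndrg1 and Vegfa in tumors over cultures, are also described outside the rule. Promoters came from RefSeq (GRCm38.p6). Near-identical copies were annotated transcripts matching a member over at least 200 bases at 90% identity or more. RPKM values divide CPM by annotated exon length.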

Additional observations from a re-analysis of the deposited data

Results flagged for a closer look

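The knockout effect differed between the lines for 26 of 32 members tested, by the interaction over the 12 culture libraries (edgeR quasi-likelihood test, Benjamini-Hochberg adjusted p under 0.05). All values are the log2 fold change of Cd276KO over control in ID8 minus that in HM-1, and the ID8 libraries labelled Cd276KO did not have lower Cd276 RNA. Among the oxygen-sensing genes, the difference was -1.0 for Hif1a, -0.71 for Egln1 and 1.0 for Egln3, with Hif1a having the highest adjusted p, 0.000301. Among the genes of uptake and the preparatory steps, the difference was -0.99 for Hk1, -0.89 for Hk2 and -0.47 for Gpi1, with Gpi1 having the highest adjusted p, 0.00144. Among the genes of the phosphofructokinase step, the difference was -0.63 for Pfkp, -0.68 for Pfkl, -0.64 for Pfkfb3 and -0.53 for Pfkfb4, with Pfkfb3 having the highest adjusted p, 0.0397. Among the genes of the payoff group, the difference was -0.34 for Aldoa, -0.65 for Tpi1, -1.58 for Pgk1, -0.34 for Pgam1, 2.02 for Eno2 and -0.39 for Pkm, with Aldoa having the highest adjusted p, 0.0432. Among the genes of pyruvate fate, the difference was -0.86 for Ldha, -1.67 for Pdk1 and -1.19 for Slc16a3, with Slc16a3 having the highest adjusted p, 0.0189. Slc16a3 was too low to be tested in HM-1 cultures alone, so its difference rests on few HM-1 reads. Among the other hypoxia-induced genes, the difference was 1.58 for Car9, -1.36 for Vegfa, -0.40 for Ndrg1, -6.36 for Bnip3, -0.55 for P4ha1, -1.57 for P4ha2 and -0.83 for Kdm3a, with Ndrg1 having the highest adjusted p, 0.0129. Of these, 23 differences lay below 0, and Egln3, Eno2 and Car9 lay above 0. Bnip3, Pdk1, P4ha2 and Pgk1 are also the 4 members that fell most in ID8 cultures, and none of them was called in HM-1 cultures.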

How the results depend on the processing

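No called member changed direction in any alternative, and of the fold changes of called or named members under the alternatives, 2153 kept direction and side of the threshold, 147 lost the call, 70 gained one and 24 changed sign, all of the last without a call. In HM-1 cultures, 6 members were called higher and 6 lower; limma voom gave 13 and 12, the fit over all 18 libraries 3 and 2, and leaving out 1 library 3 to 13 and 5 to 11, with both upper ends without control library 1. Over all genes, 3452 calls became 7577 with voom and 1725 to 7491 with a library left out. In ID8 cultures, the 18-library fit gave 1 higher, 17 lower and 4260 genes, and leaving out 1 library 3 higher, 26 to 28 lower and 7115 to 7877 genes. In tumors, the 2 higher calls became 0 with total-count scaling, 0 with a replicate block and 0 to 2 with a library left out. The 2 lower calls became 6 with DESeq2, 4 with voom, 5 with 18 libraries, 0 with the block and 0 to 3 with a library left out, and the 826 genes became 2465, 3194, 4001, 0 and 0 to 1685. For Cd276KO tumors over cultures, the 2 lower calls became 1 (upper quartile), 5 (voom), 6 (no filter) and 2 to 6 (6 without tumor library 1), with 23 to 24 higher and 10113 to 11839 genes. For control tumors over cultures, voom called 2 lower, leaving out a library gave 18 to 24 higher, and the 6107 genes became 9509 (voom), 9974 (18 libraries) and 4336 to 7072; total-count scaling split the calls into 4239 higher and 1712 lower. For the ID8 minus HM-1 difference, the 18-library fit gave 1 higher and 14 lower, and leaving out a library 18 to 25 lower and 4941 to 7143 genes. For tumors minus cultures, 0 higher became 5 with voom and 0 to 2 with a library left out, 0 lower became 1 with upper-quartile scaling, relative log expression, DESeq2, no filter and 18 libraries, 2 with voom and 0 to 1 with a library left out, and 443 genes became 953 (DESeq2), 3077 (voom), 848 (18 libraries) and 225 to 913. The cause was not tested for any of these.

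Of the genes named without a call, these changed sign. Leaving out 1 library gave ranges of -0.04 to 0.74 for Ankrd37 in HM-1 cultures and -0.09 to 0.01 for Cd276 in ID8, and total-count scaling gave -0.01 for Gapdh in ID8. In tumors the ranges were -0.23 to 0.12 for Eno1 (0.04 with voom), -0.36 to 0.04 for Pkm, -0.06 to 0.36 for Pdk1 and -0.24 to 0.59 for Bnip3. For Cd276KO tumors over cultures, Gapdh was 0.09 with upper-quartile and 0.05 with total-count scaling and -0.23 to 0.04 with a library left out, and upper-quartile scaling gave 0.02 for Eno1, 0.01 for Pkm and 0.03 for Hk1. For control tumors over cultures, Hif1a ranged over -0.39 to 0.03, and Hk1 was 0.03 with either scaling and ranged over -0.32 to 0.02, while leaving out a library gave -0.07 to 0.33 for Gapdh and -0.09 to 0.29 for Pkm. Of the members neither called nor named, at least 1 alternative changed the sign of 2 of 10 in HM-1 cultures, 14 of 19 in tumors, 1 of 1 in each genotype's tumors over cultures, 1 of 5 for ID8 minus HM-1 and 16 of 32 for tumors minus cultures. The replicate block gave 2469 genes in HM-1 and 8329 in ID8 cultures; the groups share only numbers, so pairing was not assumed. Few reads limit Car9, Adm and Eno2 in cultures, and Slc16a3 in HM-1 cultures.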
